A study of Drosophila melanogaster with 4 samples.

Results

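The regions described here are the ATAC-seq peaks that lie within 2 Mb of the centromere end of 4 chromosome arms of Drosophila melanogaster, 2L, 3L, 3R and X. They were chosen by position alone, from the midpoint of each peak in dm3 coordinates. On 2L, 3L and X the centromere end is the end of the arm with the highest coordinates, and on 3R it is coordinate 0. Of the 2 deposited peak lists, the longer, called list A, held 266 such peaks among 5145, and the shorter, called list B, held 218 among 4027. The remaining stretches of the same arms, with 2496 and 1501 peaks, served as the comparison within each list.

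ATAC-seq marks DNA that the Tn5 transposase can reach. It was applied to nuclei of S2 cells, a fly line of embryonic origin with properties of blood cells. The study has 2 libraries labelled as a knockdown (KD) of the linker histone H1 and 2 control libraries treated against LacZ, a bacterial gene that flies lack. The labels used here do not say by what agent H1 was knocked down or for how long, and the lists hold no expression values with which to check the cell type or the depletion. All 4 libraries carry labels naming both lists, so neither list can be assigned to the H1 knockdown or to the control cells. Differences below are between list A and list B and are not differences between conditions. There are no replicate lists, read depth is unknown, and every 95% interval covers counting error only and treats peaks as independent.

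The proximal part of a fly chromosome arm passes from gene-rich euchromatin into pericentric heterochromatin, which is compact, rich in transposon copies and other repeats, and marked by methylated histone H3 lysine 9 and the protein HP1a. Histone H1 binds the nucleosome and the DNA that leads in and out of it. In flies it is abundant in heterochromatin, and its loss is known to disturb pericentric heterochromatin and the silencing of transposons. Reads from repeated sequence can often be placed at several sites equally well, and the labels used here do not say how such reads were treated.

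The proximal share of the arm peaks was lower in list A. Proximal peaks made up 9.63% of the list A peaks on the 4 arms (266 of 2762, exact 95% interval 8.56 to 10.8) and 12.7% of those of list B (218 of 1719, 11.1 to 14.3), an odds ratio of list A over list B of 0.734 (0.607 to 0.887). List A was longer than list B by 1.66 times in the rest of the arms and by 1.22 times in the proximal stretches. The lists are not independent samples, as 192 of 218 proximal and 1480 of 1501 other list B peaks overlapped a list A peak. The intervals of the odds ratios in this paragraph do not take that sharing into account. The odds ratio was 0.682 (0.476 to 0.976) on 2L, 0.686 (0.474 to 0.994) on 3L and 0.645 (0.439 to 0.947) on X. On 3R it was 1.03 (0.668 to 1.58), an interval that includes 1. The evenly spaced runs described further on held 23 of the 65 proximal list B peaks on 2L and no proximal list A peak. With all runs left out, the odds ratio over the 4 arms was 0.820 (0.674 to 0.997), and it was not computed for 2L alone. In the stronger 50% of each list the interval reached past 1 (0.765, 0.574 to 1.02), as it did with a proximal distance of 1 Mb (0.774, 0.596 to 1.01).

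Each arm contributed a similar number of list A members, and 3R contributed fewest to list B. List A had 72 peaks on 2L, 71 on 3L, 59 on 3R and 64 on X, and list B had 65, 58, 36 and 59 on the same arms. Together they covered 115 kb in list A and 102 kb in list B. Peak widths differed between arms in both lists. The median width on 2L was 191.5 bp in list A (order-statistic interval 158 to 225) and 216 bp in list B (186 to 259), against 350 bp (284 to 502) and 351 bp (268 to 503) on X. Peaks of 1 kb or more made up 13 of the 64 proximal list A peaks on X and 34 of the 461 in the rest of X, an odds ratio of 3.20 (1.59 to 6.46). In list B the corresponding counts were 10 of 59 and 27 of 274, and the interval included 1 (1.87, 0.849 to 4.10). On 2L only 1 of 72 list A peaks and 1 of 65 list B peaks were that wide. Over the 4 arms together, the list A odds ratio for peaks of that width was 1.38, with an interval of 0.866 to 2.20. The list B value was 1.02, with limits of 0.613 and 1.68. On 2L, 3L and 3R the list A values were 0.265, 0.864 and 1.14, and all of these intervals included 1. Several of the wide list A peaks on X lay close together, from 21519846 to 21602147, and the interval for X treats them as independent.

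**Figure D1:**
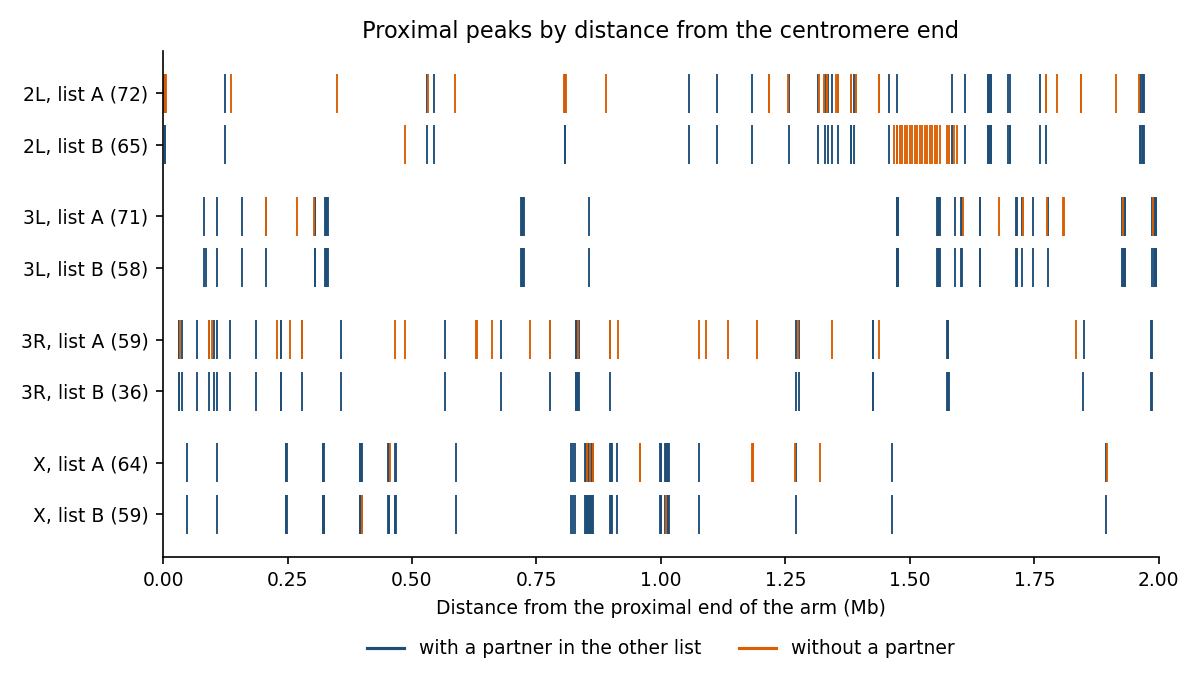
Each vertical line is a proximal peak, placed by its distance in Mb from the centromere end of its arm, with list A above list B for each arm and the number of peaks in brackets. Blue lines overlap a peak of the other list and orange lines do not; a dense orange block stands on 2L in list B, and wide empty stretches lie on 3L and X.

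The peaks were unevenly spread along the 2 Mb. On 3L no peak of list A lay between 23069948 and 23688694, an empty stretch of 619 kb, and the same stretch was empty in list B. On X the longest empty stretch, between 20528301 and 20957758 in list A, measured 429 kb in both lists. Short gaps of 1 kb or less were about as common as elsewhere, at 44.3% of proximal gaps and 38.9% of those in the rest of the arms in list A (38.2 to 50.5 and 37.0 to 40.9). In list B they made up 40.2% and 39.6%. The share of peaks in groups varied between the proximal stretches. In list A, 64.8% of proximal 3L peaks and 53.1% of proximal X peaks belonged to groups of 4 or more with gaps of at most 2 kb, against 30.6% on 2L and 15.3% on 3R. In list B these shares were 63.8% on 3L and 66.1% on X, against 15.4% on 2L and 33.3% on 3R. The largest group of list A lay on X from 21558463 to 21575663, with 13 peaks over 17.2 kb, of which 10 overlapped list B. The next largest lay on 3L from 23818517 to 23824907, with 11 peaks, all of which overlapped list B.

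Counts did not change in 1 direction with distance from the centromere. In 8 bins of 250 kb, counted from the centromere end, list A had 32, 34, 22, 47, 21, 42, 31 and 37 peaks and list B had 25, 30, 15, 37, 13, 30, 45 and 23. List A had 135 peaks in the nearer 1 Mb and 131 in the farther 1 Mb, and list B had 107 and 111. The arms differed: on X, 46 of 64 list A peaks and 46 of 59 list B peaks were in the nearer 1 Mb, and on 2L 18 of 72 and 10 of 65 were. List B exceeded list A in a single bin of the pooled counts, from 1500 to 1750 kb, where most of the 2L runs described further on lie.

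Proximal list A peaks overlapped list B more often than other list A peaks of the same arms. A partner, meaning a peak of the other list that overlapped by at least 1 bp, was found for 186 of 266 proximal list A peaks (69.9%, 64.0 to 75.4) and for 1417 of 2496 in the rest of the arms (56.8%, 54.8 to 58.7), an odds ratio of 1.77 (1.35 to 2.33). Over all chromosomes the share was 66.9%, which lies inside the proximal interval, so the difference was one from the arms and not from the whole list. It is also not independent of the lower proximal share of list A given above. On the 4 arms 192 of 218 proximal and 1480 of 1501 other list B peaks overlapped list A. The share of list A with a partner therefore largely follows the ratio of list lengths, 1.22 in the proximal stretches and 1.66 elsewhere on the arms. Among peaks of equal strength, with 10 equal parts of list A pooled, the proximal odds were 3.52 times those of the others (2.42 to 5.12). Strength is the deposited area under the significance curve of the peak caller. In the weakest 3 parts a partner was found for 34.7% of 95 proximal peaks (25.3 to 45.2) and 14.05% of 783 others (11.7 to 16.7). In the strongest 3 parts the shares were 98.5% (67 of 68) and 98.7% (675 of 684).

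Arm by arm, this difference was seen on 3L and X. On 3L a partner was found for 59 of 71 proximal list A peaks (83.1%) and 53.2% of the others, an odds ratio of 4.33 (2.28 to 8.22). On X it was found for 52 of 64 (81.25%) and 54.9% of the others (3.56, 1.85 to 6.85). On 3R the shares were 59.3% (35 of 59) and 59.4% (0.999, 0.583 to 1.71), and on 2L 55.6% (40 of 72) and 58.5% (0.888, 0.543 to 1.45). The odds ratio of 3L was 4.88 times that of 2L (2.18 to 10.9) and 4.34 times that of 3R (1.88 to 10.02). The odds ratio of X was 4.01 times that of 2L (1.77 to 9.09) and 3.57 times that of 3R (1.53 to 8.32), while 3L and X could not be told apart (1.22, 0.487 to 3.04). At equal strength the odds ratio was 21.8 on 3L (8.07 to 58.9), 6.61 on X (2.45 to 17.8), 2.66 on 2L (1.37 to 5.14) and 1.00 on 3R (0.490 to 2.04). A comparison of these, added after seeing the data, gave 8.20 for 3L over 2L (2.49 to 27.0), whereas the interval of X over 2L included 1 (2.49, 0.757 to 8.18). Over 3R it gave 21.8 for 3L (6.41 to 74.1), 6.61 for X (1.95 to 22.4) and 2.66 for 2L (1.01 to 7.02). For 3L over X the interval included 1 (3.30, 0.810 to 13.4). The median proximal list A peak on 2L stood at percentile 25.2 of the list by strength, and the median of the other 2L peaks at 48.5. Without 3L, the odds ratio over the other 3 arms was 1.35 and its interval reached 1 (0.995 to 1.84).

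**Figure D2:**
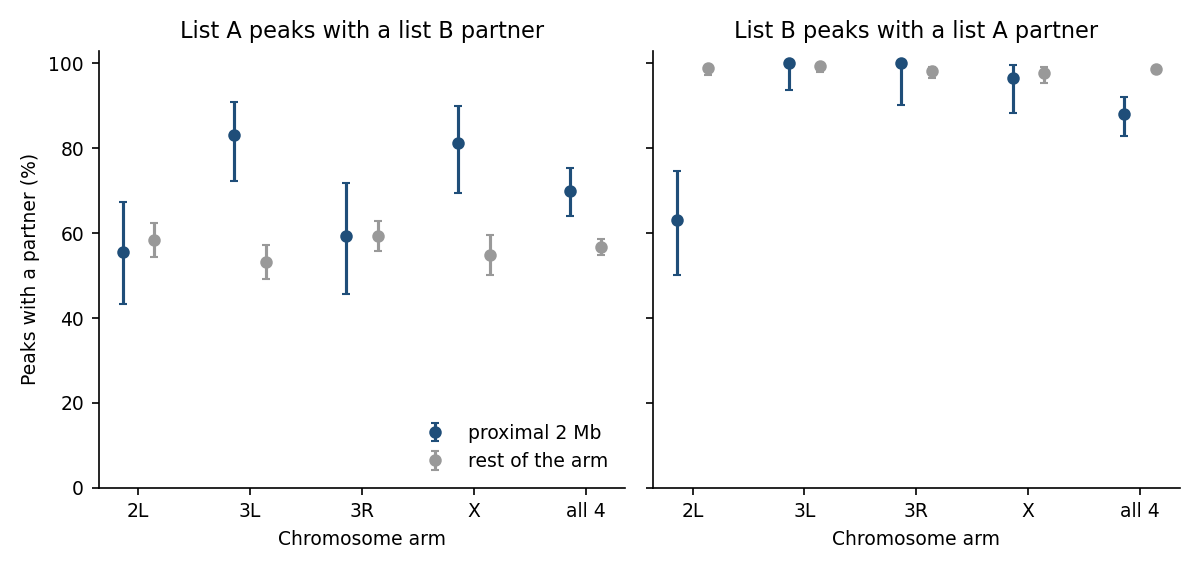
Share of peaks with a partner in the other list (%), by arm, for the proximal 2 Mb (blue) and the rest of the same arm (grey), with exact 95% binomial intervals; list A is on the left and list B on the right. In list A the proximal shares of 3L (83.1%) and X (81.25%) stand above the rest of their arms, and in list B the proximal share of 2L (63.1%) stands below.

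In list B the proximal peaks had a partner less often than the others of the same arms, with nearly all of the unpartnered ones on 2L. A list A partner was found for 192 of 218 proximal list B peaks (88.1%, 83.0 to 92.1), against 1480 of 1501 in the rest of the arms (98.6%, 97.9 to 99.1), an odds ratio of 0.105 (0.0578 to 0.190). Over all chromosomes the share was 87.8%, which also lies inside the proximal interval, so this difference too was one from the arms and not from the whole list. On 3L all 58 and on 3R all 36 proximal list B peaks had a partner, and on X 57 of 59 did. On 2L the count was 41 of 65 (63.1%, 50.2 to 74.7), against 374 of 378 in the rest of 2L. Of the 26 proximal list B peaks without a partner, 24 lay on 2L, and 22 of those belonged to evenly spaced runs. Outside the runs 40 of 42 proximal 2L peaks of list B had a partner (95.2%, 83.8 to 99.4), and the odds ratio over the 4 arms was 0.685 (0.233 to 2.02). With a reciprocal overlap of 50% as the partner rule, the odds ratio with the runs kept was 0.695 (0.484 to 0.9996), and at equal strength its interval included 1 (0.778, 0.532 to 1.14).

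Evenly spaced runs were looked for in both lists as 5 or more consecutive summits whose distances each lay within 10% of the median distance. Proximal list B had 2 such runs with 23 peaks, both on 2L, which is 10.6% of its members (6.81 to 15.4), and in the rest of the arms 16 of 1501 peaks were in runs (1.07%). Proximal list A had none, which allows up to 1.13% of its 266 peaks as 3 counts, and the rest of its arms had 26 of 2496 (1.04%). These counts depended on the rule: at a tolerance of 20% runs held 10 proximal list A peaks and 33 of list B, at 5% they held 0 and 14, and with 3 distances in place of 4 they held 8 and 27. The first run had 5 peaks with summits from 21417344 to 21437322 and a median distance of 4.96 kb (4822 to 5233 bp). The second run had 18 peaks with summits from 21451281 to 21536829 and a median distance of 5.04 kb (4608 to 5367 bp). The runs were separated by 13959 bp, which is 2.77 times the distance within the second run.

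The run peaks were of low to middle strength within list B. The 18 peaks of the second run had a summit −log10 p between 3.77 and 4.802, where the lowest value in list B was 3.64. Of these 18 peaks, 7 were 463 to 480 bp wide and stood between percentiles 50.5 and 53.2 of list B. The other 11 were 132 to 264 bp wide and stood between percentiles 7.08 and 37.4. In the first run the widths were 132 to 598 bp and the percentiles 3.799 to 60.9. Among run peaks without a partner the strongest, from 21417169 to 21417593, was 425 bp wide and lay 9.33 kb from the nearest list A peak. The second strongest, from 21506850 to 21507328, lay 30.2 kb from any list A peak.

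List A had a single peak between the first and last run peaks, from 21426923 to 21427020. It was 98 bp wide, stood at percentile 17.98 of list A, and overlapped a run peak of list B that was 598 bp wide, from 21426961 to 21427558. Only the stretch from 21426961 to 21427020, at the edge of the run peak, was shared. The summits stood apart, at 21426976 in list A and 21427399 in list B. Immediately beyond the last run peak both lists had a peak, which list A placed from 21537573 to 21537775 and list B from 21537568 to 21537783, at percentile 71.2 of list A and 78.2 of list B. Beyond this shared peak list B had a further peak without a partner, from 21543058 to 21543219. That peak was 162 bp wide, stood at percentile 8.69 of list B and was not part of a run. Because the lists hold no read counts, a list A signal below the caller's threshold at the other run positions could not be measured.

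**Figure D3:**
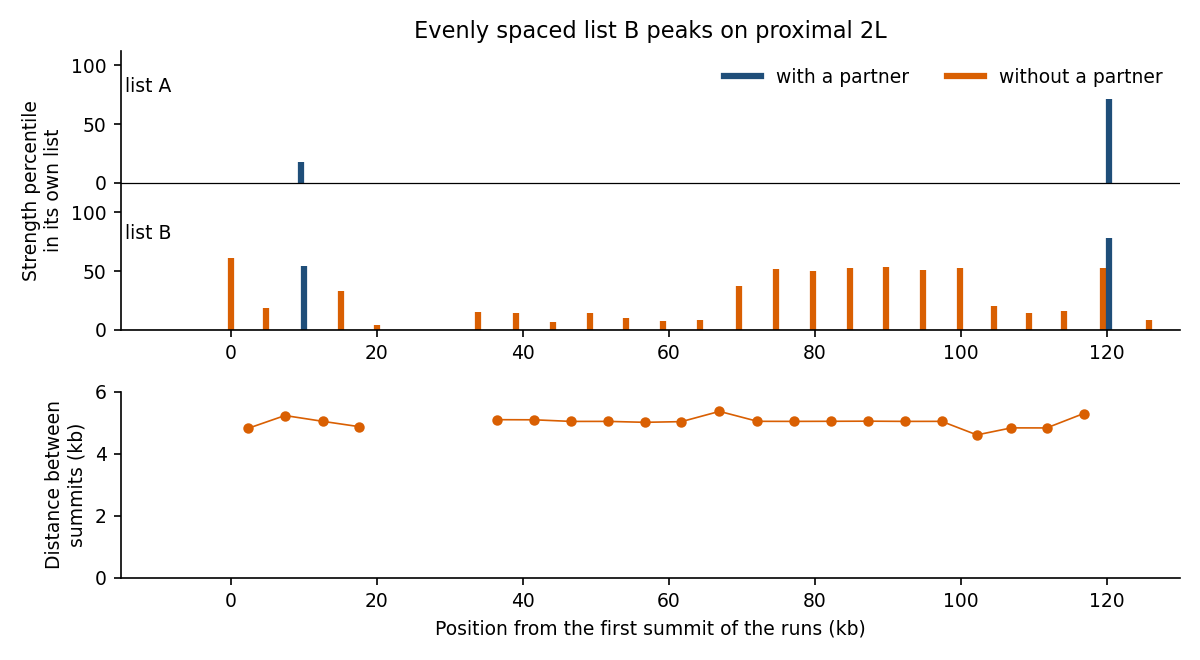
The stretch of proximal 2L with the evenly spaced list B peaks, plotted by position in kb from the first summit of the runs. Top, each bar is a peak at its summit with its strength percentile within its own list, list A above list B, blue with and orange without a partner; bottom, the distance in kb between neighbouring summits within each run, which stays between 4608 and 5367 bp in the longer run.

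In Drosophila the genes of the replication-dependent histones are arranged as tandem copies of 1 unit, with a gene for H1 and for each of the core histones, and this histone gene complex is known to lie in the proximal part of 2L. The RefSeq gene table of Release 6, another build than that of the lists, names 23 H1 genes on 2L, all 23 next to a gene for H2B. It also names 20 genes for H2A, 23 for H2B, 23 for H3 and 22 for H4 there. The number of list B peaks in runs depended on the spacing rule, as given above, so it is not set against these gene counts. The peaks were not placed on these genes, because no annotation of dm3 was used here, so whether they lie on histone genes at all was not tested. The lists also cannot tell reads from chromatin apart from reads of any other DNA of the same sequence in a library.

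A second kind of repetition was a recurring layout, in which a group of peaks had the same internal distances and widths as a group elsewhere. This pattern was looked for after similar groups had been seen, so it is a description. With 1 peak of each group aligned, a match needed 4 or more peaks within 10 kb whose midpoints agreed within 30 bp and whose widths agreed within 20%, in the same or in reverse order, with a group at least 20 kb away. In list A, 29 of 266 proximal peaks (10.9%, 7.42 to 15.3) and 198 of 2496 in the rest of the arms (7.93%, 6.90 to 9.06) took part in such a match. In list B it was 19 of 218 (8.72%, 5.33 to 13.3) and 173 of 1501 (11.5%, 9.95 to 13.3). These intervals overlap in both lists. Over all chromosomes the shares were 6.18% in list A (318 of 5145) and 7.05% in list B (284 of 4027), of which the first lies below the proximal interval of list A. By arm, 10 proximal list A peaks on 2L, 15 on 3L, 4 on X and 0 of 59 on 3R were involved.

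The layout with the most copies occurred on proximal 2L from 21347631 to 21354958 and on proximal 3L from 22548949 to 22556313. On 2L its 6 list A peaks began 0, 0.838, 2.402, 4.188, 5.868 and 7 kb from the first, with widths of 713, 565, 657, 265, 187 and 328 bp. On 3L the 6 peaks began 0, 0.845, 2.404, 4.193, 5.87 and 7.005 kb from the first, with widths of 718, 281, 594, 262, 246 and 360 bp. The second peak was narrower on 3L. Strength was 538, 432, 202, 85.1, 23.7 and 417 on 2L and 528, 238, 175, 78.9, 31.1 and 416 on 3L, so that the copies differed most at that second peak. Groups matching the 2L copy were found at 10 other places in list A, 9 of them on the chromosome arms, such as 2L from 20576302 to 20583659, and 1 on the 3RHet scaffold from 845677 to 853060. A further one of the 9 was a match in reverse order on 3L, from 8491464 to 8497927, which overlaps a place that also matched the second layout. That match had 4 peaks, and the second layout matched there in 5 peaks. How often unrelated groups match in 4 peaks was not estimated. A copy here means a group of matching peaks, because no sequence was compared. In list A the 3L copy matched 7 other places and was linked to the 2L copy through shared matches on 2L and 3R. In list B 4 peaks of the 2L and 3L copies matched each other directly.

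The second layout occurred on proximal 3L and proximal X, which did not match each other directly but matched the same groups on 2L and 3LHet. On 3L from 22610355 to 22615366 its 5 list A peaks began 0, 1.023, 2.916, 3.651 and 4.297 kb from the first, and on X from 21407630 to 21412724 the 5 peaks began 0, 1.016, 2.916, 3.641 and 4.299 kb from the first. Their widths were 389, 616, 268, 270 and 715 bp on 3L and 388, 622, 577, 284 and 796 bp on X, so that the middle peak was wider on X. The 3L copy matched 5 other places and the X copy 4. Among those of the 3L copy were 2L from 347958 to 353054 and the 3L place just named, here from 8491464 to 8496468, where the widths were 397, 613, 279, 276 and 798 bp on 2L and 383, 613, 274, 274 and 710 bp on 3L. All 5 of the 3L peaks and all 4 matching X peaks had a list B partner. Neither layout was assigned to a transposon family, because no sequence of dm3 was used here.

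**Figure D4:**
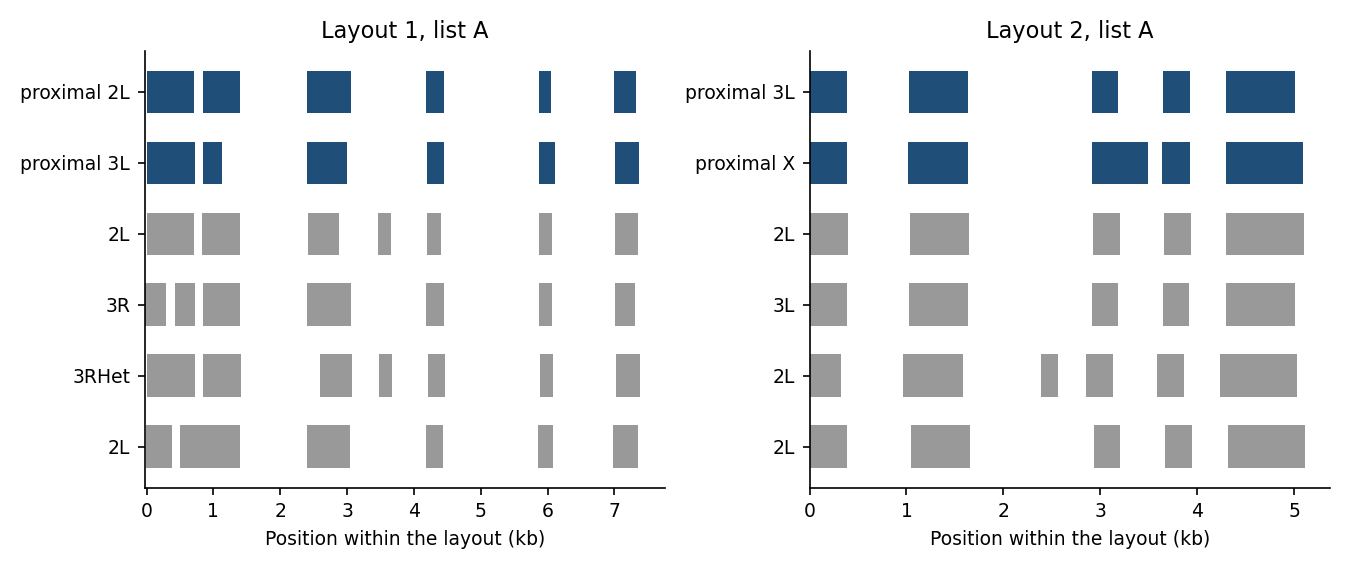
List A peaks of the layout shared by proximal 2L and 3L (left) and of the layout shared by proximal 3L and X (right), drawn as bars at their start and width in kb from the first peak. Blue rows are the proximal copies and grey rows are matching groups on the chromosome arms or scaffold named at the left, and most peaks recur at the same offsets from row to row.

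Peaks in recurring layouts were found in both lists more often than other list A peaks. A partner was found for 27 of 29 such proximal list A peaks (93.1%, 77.2 to 99.2) and for 159 of 237 other proximal peaks (67.1%, 60.7 to 73.0). In the rest of the arms it was found for 178 of 198 (89.9%, 84.8 to 93.7) and 1239 of 2298 (53.9%, 51.9 to 56.0). The median layout peak stood at percentile 55.2 of list A in the proximal stretches, and the median of the other proximal peaks at 42.9. Without these peaks the odds of a partner were still higher in the proximal stretches, by 1.74 times (1.31 to 2.31). Whether copies of a layout share reads was not tested, so they are not counted as independent peaks.

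No proximal peak had a near-identical twin, defined as another peak anywhere in its list with the same summit −log10 p and with width and strength within 1%. The counts were 0 of 266 in list A and 0 of 218 in list B, which allow up to 1.13% and 1.38% as 3 counts. In the rest of the arms 6 of 2496 list A peaks and 5 of 1501 list B peaks had one.

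The shift of paired peaks towards a greater width in list A was smaller near the centromere than along the rest of the arms. The ratio used is signed, so it does not measure how far the widths of a pair differ in either direction. The 174 proximal one-to-one pairs had a median log2 width ratio of list A over list B of 0.08 (0.05 to 0.11), and the 1330 pairs in the rest of the arms one of 0.20 (0.18 to 0.22). Median widths of proximal pairs were 297.5 bp (list A) and 267.5 bp (list B), and those of the other pairs 355.5 bp and 285 bp. The peak was wider in list A in 124 of 174 proximal pairs (71.3%, 63.9 to 77.9) and in 1162 of 1330 others (87.4%, 85.5 to 89.1). The smaller ratio was seen in the stronger 50% of list A, at 0.08 (0.04 to 0.11) in proximal and 0.20 (0.18 to 0.22) in other pairs. In the weaker 50% the ratios were 0.09 (0.005 to 0.15) and 0.19 (0.13 to 0.23), with intervals that overlap.

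By arm, the proximal ratio was smallest on 3L and X. The median log2 ratio was 0.03 on 3L (0.0007 to 0.10, 54 pairs) and 0.03 on X (0.003 to 0.14, 47 pairs). In the rest of those arms it was 0.23 (0.20 to 0.29) and 0.16 (0.10 to 0.20). The intervals of 3L do not overlap and those of X do. On 3R the proximal and other ratios were 0.17 (0.06 to 0.27, 34 pairs) and 0.19 (0.17 to 0.23), and on 2L 0.11 (0.07 to 0.22, 39 pairs) and 0.20 (0.18 to 0.25), with intervals that overlap on both arms. Summits of proximal pairs lay a median of 2 bp apart, and those of other pairs 6 bp apart.

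**Figure D5:**
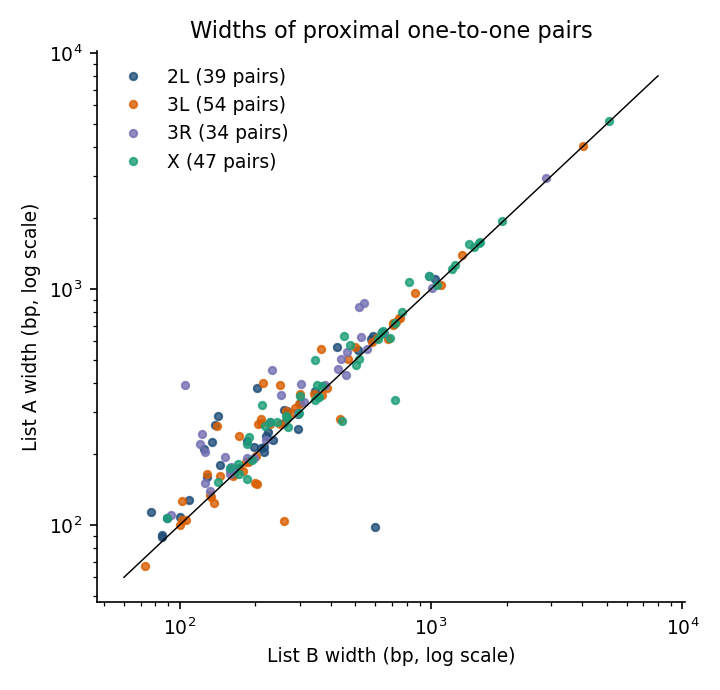
Width of each of the 174 proximal one-to-one pairs in list A (vertical, bp) against list B (horizontal, bp), both on log scales, coloured by arm, with the line of equal width. List A was wider in 124 pairs, which lie above the line.

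The 3 strongest list A members of each arm were all found in list B, and those of 3L and X included the widest regions. On 3L the strongest and nearest to the centromere end ran from 24456675 to 24464077 in list A, 7403 bp wide, and list B divided it into 2 peaks, the wider 6450 bp. The second on 3L ran from 24432474 to 24436498, and measured 4025 bp (list A) and 4023 bp (list B). The next 3L peak by strength, from 22941065 to 22942099, measured 1035 bp (list A) and 1095 bp (list B). On X the strongest ran from 21597009 to 21602147 and measured 5139 bp (list A) and 5128 bp (list B). Next to it lay a peak from 21595259 to 21596479 that measured 1221 bp (list A) and 1211 bp (list B). A weaker X peak, from 22102004 to 22103142, measured 1139 bp (list A) and 984 bp (list B).

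The single strongest member of 3R and that of 2L were shorter than those of 3L and X. On 3R a pair of neighbours ran from 1573001 to 1575963 (2963 bp in list A, 2875 bp in list B) and from 1576415 to 1578745 (2331 bp in list A), and list B divided the second of them into 2 peaks. The 3R peak from 236811 to 237944 measured 1134 bp (list A) and 981 bp (list B). On 2L the strongest ran from 21041922 to 21042474 and measured 553 bp (list A) and 514 bp (list B). A 2L peak from 21250477 to 21251109 differed most in standing among these, at percentile 92.9 of list A and 79.4 of list B. The remaining one, from 21828033 to 21829130, stood at percentiles 95.8 and 93.0.

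The strongest members without a partner stood lower in their lists. On 3R the strongest list A peak without a list B partner, from 1089721 to 1090058, stood at percentile 77.9 of list A and lay 182 kb from the nearest list B peak, and the next, from 629029 to 629380, stood at percentile 60.3. On 2L the corresponding peaks, from 21096697 to 21096936 and from 21678434 to 21679176, stood at percentiles 60.1 and 53.7. On X the highest such percentile was 47.3 (21237648 to 21237840) and on 3L 29.8 (22734810 to 22734940). On X the list B peaks without a list A partner, from 22023222 to 22023546 and from 21412862 to 21413016, stood at percentiles 5.66 and 0.844 of list B, and lay 0.588 and 0.137 kb from a list A peak. On 3L and 3R there was none.

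The choice of 2 Mb cut no group of list A peaks: the outermost members of list A lay 1970 kb (2L), 1994 kb (3L), 1986 kb (3R) and 1895 kb (X) from the centromere ends, and the first peaks beyond lay at 2075, 2142, 2179 and 2241 kb. Of the innermost members, those of list A stood 2.58, 83.2, 32.0 and 47.2 kb from the same ends and those of list B 3.22, 82.7, 32.0 and 47.2 kb.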

How the data were processed

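The submitters' processing notes name the build dm3, the aligner Bowtie2 and the peak caller Genrich 0.5. Which options and filters were used, what was done with reads of several placements, and whether libraries were pooled is not given in the sources used here. Each of the 2 lists that the authors deposited has 10 columns in narrowPeak order and no header. The authors' peak caller made the deposited signal values, which by their place in the format are areas under its significance curve (strength). The deposited score was, within 1, the area per base times 1000 with a ceiling of 1000. The deposited −log10 p is the caller's value at the summit. It depends on depth, as strength does, and both were used within 1 list only. Start, end and summit offset are the other deposited columns that were used.

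All other values were computed in Python 3.11.15 (with pandas 2.3.3, numpy 2.4.6, scipy 1.17.1 and, for plots, matplotlib 3.10.9). Coordinates are 1-based. The labels put 2 libraries in each group and assign neither list to a group, so no test across samples was made. Shares carry exact binomial intervals and medians order-statistic intervals. Odds ratios carry log intervals, or Robins-Breslow-Greenland intervals where pooled over strength by the Mantel-Haenszel method. Intervals and floors of 3 counts cover counting error only. Overlap, odds ratios, run finding and layout finding were tested on simulated data.

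The members, the comparisons and the alternatives were chosen with earlier results of these data known. The peaks named are, per arm, the 3 strongest list A peaks, the 2 strongest of each list without a partner, those nearest to the centromere end and to the 2 Mb boundary, and every evenly spaced run. The layouts, the largest groups and the single peaks described beside the runs were chosen after their values were seen.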

Additional observations from a re-analysis of the deposited data

How the results depend on the processing

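Leaving out or varying the recurring layouts was an alternative chosen after seeing the data. Over 19 settings and 20 results there were 143 alternative values. Of these, 114 kept their side of the threshold or stayed close, 19 moved, 6 lost and 0 gained the threshold, and 4 reversed. Some of the 114 could not have differed. With no twins among the proximal peaks, leaving out an arm, the runs or the weaker peaks had to give 0 again. So did asking for a twin on the same arm. With no proximal list A peak in a run, a tolerance of 5% or a 1 Mb limit also had to give 0. Leaving out the runs could not change the partner share or strength percentile of list A. The 114 is thus a count and does not measure how firm the results are. The reversals were all in list B, whose odds of a partner were 1.51 (0.361 to 6.30) with a proximal distance of 1 Mb and 1.16 (0.265 to 5.07) without 2L, or 1.49 and 1.16 within strength. All these intervals include 1. Both settings take the 2L runs out of the proximal peaks. Those runs held 22 of the 26 proximal list B peaks without a partner, and why they lack one was not tested. With the runs left out the odds of a partner in list B were 0.685 (0.831 within strength). With a reciprocal overlap of 50% the value within strength was 0.778. The partner share of list B was 80.3% with that overlap, 98.1% within 1 Mb, 98.7% without 2L, 97.9% without the runs and 79.8% when list A was cut to as many peaks as list B, where that of list A was 86.1%. The odds ratio of proximal peaks, list A over list B, was 0.774 within 1 Mb and 0.765 in the stronger 50% of peaks. The proximal shares of list A and list B were 4.89% and 6.22% within 1 Mb, and 10.9% and 15.4% without 3R. The odds of a partner in list A were 1.35 without 3L. Evenly spaced runs held 6 list B peaks in the stronger 50%, 0 within 1 Mb and 14 at a tolerance of 5%. In list A they held 10 peaks at a tolerance of 20% and 8 with 3 distances. Recurring layouts held 49 list A and 33 list B peaks at 60 bp, and 11 and 10 with 5 matching peaks. No paired analysis was possible because the lists carry no library of their own, so that no replicate could be left out either. Depth is unknown, so a weak peak absent from 1 list may lie below its threshold.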
